A study of Mus musculus with 6 samples.

Results

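Rab GTPases, synaptotagmins and SNARE proteins with their syntaxin-binding partners are the machinery that moves, docks and fuses vesicles. The members were taken by gene symbol alone: every gene on the array whose symbol is Rab, Stx, Syt, Vamp, Snap or Stxbp followed by a number and at most a letter a to d, which gave 106 of the 19938 genes with a measured 1-symbol probe set. They comprise 59 Rab genes, 14 syntaxin genes (Stx), 5 Snap genes, 6 Vamp genes, 5 syntaxin-binding protein genes (Stxbp) and 17 synaptotagmin genes (Syt). Snap91 is kept by its symbol although it encodes a clathrin assembly protein and not a SNARE.

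A Rab GTPase, when loaded with GTP, marks a membrane and recruits the motors and tethers that bring a vesicle to its target. SNAREs then drive fusion: a VAMP on the vesicle pairs with a syntaxin and a SNAP protein on the target membrane, syntaxin-binding proteins of the Munc18 kind guide the pairing, and synaptotagmins couple fusion to calcium. In type II alveolar epithelial cells this machinery serves the lamellar body, a lysosome-related organelle that stores surfactant and releases it at the apical surface.

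The transcripts of the members were read on 6 Affymetrix mouse arrays, each holding RNA pooled from the type II cells of 3 mice aged 8 weeks. The 3 pools labelled knockout came from mice with the transgenes SP-C-rtTA and (tetO)7CMV-Cre and the conditional allele Gpr116flx/flx of an adhesion receptor gene. The 3 control pools came from mice with the transgenes SP-C-rtTA and (tetO)7CMV-Cre alone, so both groups carried Cre. Cre is driven through the surfactant protein C promoter and a tetracycline-dependent activator, and the cells were obtained with collagenase and differential plating and lysed 2 hours later, per the labels. The comparison asks how deletion of Gpr116 in these cells alters their transcripts. All values are log2 expression values that the authors made with RMA, which sets the arrays to one distribution, and the number of arrays limits their precision. A gene is called higher or lower here when its limma p, adjusted by Benjamini-Hochberg over all 19938 genes, is under 0.05. The p-values measure the spread between pools, not between single mice.

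The Gpr116 probe set (named Adgrf5) was called higher, not lower, in the knockout-labelled pools (0.34 ± 0.05; limma adjusted p = 0.0119), at 11.89, 11.78 and 11.87 against 11.49, 11.53 and 11.51 in the control pools. Where its probes lie relative to the floxed exons was not examined here. The genotype is therefore unchecked and every direction rests on the labels. Knockout 2 and control 1 carried Y-linked signal, with a mean of 8.37 and 8.41 over 3 Y-linked genes against 4.07 to 4.23 in the other 4 pools. Type II cell markers read high in every pool, with a mean over 12 genes of 12.32 to 12.37 in the knockout-labelled and 12.24 to 12.27 in the control pools. Of these 12 genes 2 were called higher, Lamp3 (0.32 ± 0.07; adjusted p = 0.0337) and Lpcat1 (0.22 ± 0.05; adjusted p = 0.0405), and 0 lower. In 5 (41.7%) every knockout-labelled pool was above every control pool, against 14.8% of all genes. The reverse held in 1 (8.33%), Sftpa1, against 12.8% of all genes. The median difference of the 12 was 0.06, with 9 positive and 3 negative. Markers of ciliated cells were lower in the knockout-labelled pools, with 19 of 20 called lower, 0 higher and a mean of 8.42, 8.03 and 7.85 in knockout 1, 2 and 3 against 9.08, 9.03 and 9.09 in the control pools. Foxj1, which defines ciliated cells, averaged 8.67 in the knockout-labelled and 9.45 in the control pools. Of 8 club cell markers 3 were called lower, of which Scgb3a2 had the largest difference (-0.96), and 0 higher. Their differences were negative in 5 and positive in 3, with Bpifa1 at 0.51 and Muc5b at 0.32, neither called. In 5 of the 8 (62.5%) every knockout-labelled pool was below every control pool, against 12.8% of all genes, and in 0 the reverse held. The club marker mean overlapped between the groups, at 10.28, 9.81 and 10.79 in knockout 1, 2 and 3 against 10.59, 10.41 and 10.39 in the control pools. Bpifa1 (9.69, 6.96 and 11.74) and Scgb3a1 (10.13, 10.15 and 12.02) spread widely over knockout 1, 2 and 3. Neuroendocrine and neuronal markers other than Snap25 were dim, with means over 9 genes of 5.83 to 6.01 against 6.10 to 6.21 and 2 of 9 called lower. Of 9 type I cell markers 1, Ager, was called higher and 0 lower. Their median difference was 0.22, with 7 positive and 2 negative, and their mean was 9.88, 10.13 and 10.24 in knockout 1, 2 and 3 against 9.98, 9.84 and 9.77 in the control pools. Means of macrophage, neutrophil and mast, T and B, endothelial, and fibroblast and muscle markers overlapped between the groups. Fibroblast and muscle markers averaged 9.003 to 9.396 in the knockout-labelled and 8.995 to 9.367 in the control pools. The T and B mean was 6.35 in knockout 1, 5.82 and 5.89 in knockout 2 and 3, and 5.84 to 5.95 in the control pools. In bulk RNA, fewer cells of a type and less RNA per cell cannot be told apart.

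Of the 106 members, 6 were called higher and 8 lower in the knockout-labelled pools, and 92 were not called. The members called higher were Stx12, Stx19, Rab9, Rab27a, Stx8 and Rab5b, and those called lower were Syt5, Rab36, Syt10, Rab6b, Stxbp4, Snap25, Vamp5 and Syt9. Over all genes 3.36% were called higher, 5.13% lower and 8.49% in either direction, and among the members the shares were 5.66%, 7.55% and 13.2%. The rises were of at most 0.63 on log2 and the falls reached 1.15. By family, 3 of 59 Rab genes were higher and 2 lower, and 3 of 14 syntaxin genes were higher and 0 lower. The other 4 families had 0 higher, with 1 of 5 Snap, 1 of 6 Vamp, 1 of 5 syntaxin-binding and 3 of 17 synaptotagmin genes lower. The median difference was 0.02 over the members and 0.003 over all genes.

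**Figure D1:**
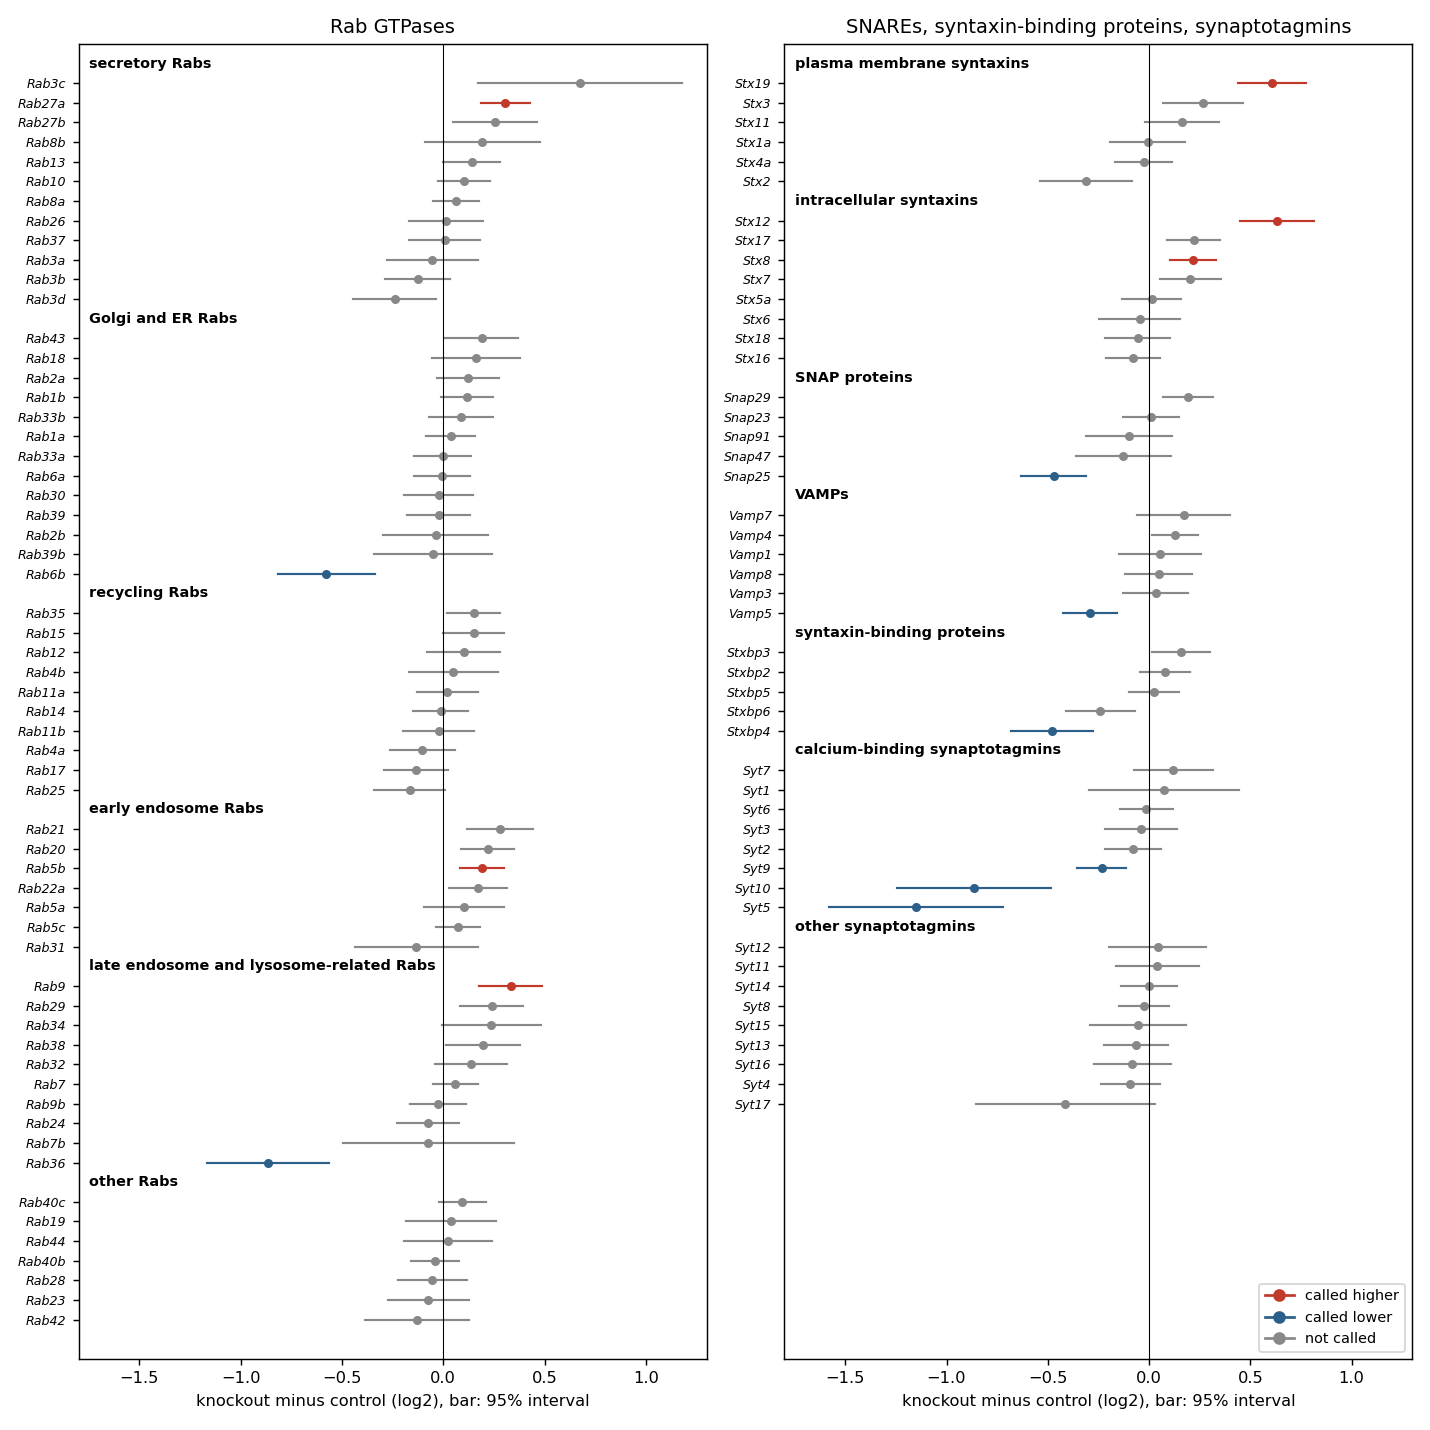
Log2 difference between the knockout-labelled and the control pools (x axis, knockout minus control) for the 106 members, grouped by role, with points for the difference and bars for its 95% interval. The 6 members called higher are red, the 8 called lower blue and the 92 others grey; Syt5 lies farthest to the left at -1.15 and Rab3c, not called, farthest to the right at 0.68.

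The promoters of the members with the largest called changes are shown for comparison, as 250 bases before to 50 bases after the transcription start in RefSeq's GRCm38.p6 annotation. Of the 14 called members 11 had an entry, and the 2 largest rises and the 2 largest falls among these are printed 5′ to 3′ on the gene's own strand. Capitals mark matches, on either strand, to the letters CACGTG (an E-box), GTTGCC (part of the RFX motif), CCAAT (the CCAAT box) or GGGCGG (a GC box), and no match in the 4 windows shares letters with another.
Stx12, chr4:132884409-132884708, minus strand: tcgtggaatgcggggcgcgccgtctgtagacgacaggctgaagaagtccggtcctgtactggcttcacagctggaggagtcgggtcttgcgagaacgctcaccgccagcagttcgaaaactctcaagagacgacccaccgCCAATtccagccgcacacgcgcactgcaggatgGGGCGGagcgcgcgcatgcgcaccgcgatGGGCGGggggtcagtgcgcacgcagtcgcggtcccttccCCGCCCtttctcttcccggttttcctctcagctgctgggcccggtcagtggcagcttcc
Stx19, chr16:62814426-62814725, plus strand: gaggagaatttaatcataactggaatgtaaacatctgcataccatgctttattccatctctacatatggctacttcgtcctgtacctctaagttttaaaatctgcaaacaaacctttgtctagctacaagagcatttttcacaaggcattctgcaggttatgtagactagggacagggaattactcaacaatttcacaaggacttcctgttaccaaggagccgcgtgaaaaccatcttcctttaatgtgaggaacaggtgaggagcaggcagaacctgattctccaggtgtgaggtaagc
Syt10, chr15:89841811-89842110, minus strand: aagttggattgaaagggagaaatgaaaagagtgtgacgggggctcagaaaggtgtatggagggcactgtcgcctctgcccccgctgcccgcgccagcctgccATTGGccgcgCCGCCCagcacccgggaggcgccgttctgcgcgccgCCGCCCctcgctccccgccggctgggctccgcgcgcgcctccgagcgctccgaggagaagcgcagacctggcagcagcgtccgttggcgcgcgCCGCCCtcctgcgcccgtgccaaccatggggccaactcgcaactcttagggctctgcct
Rab6b, chr9:103111824-103112123, plus strand: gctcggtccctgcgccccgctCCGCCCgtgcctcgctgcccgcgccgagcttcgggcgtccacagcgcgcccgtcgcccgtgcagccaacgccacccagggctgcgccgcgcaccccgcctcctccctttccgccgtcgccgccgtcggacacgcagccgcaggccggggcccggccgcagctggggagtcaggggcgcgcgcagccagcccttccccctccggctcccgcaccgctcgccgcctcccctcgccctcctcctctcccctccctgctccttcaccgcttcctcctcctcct
The Stx19 window held none of the 4 motifs, was 42.0% G and C and had 3 CpG pairs. The Stx12 window was 65.7% G and C with 32 CpG pairs, 1 CCAAT box and 3 GC boxes. Syt10 had 1 CCAAT box and 3 GC boxes at 70.7% G and C, and Rab6b had 1 GC box at 78.7%. Over all 32851 promoters in the table the median was 52.7% G and C, and the GC box was found in 35.7%, the CCAAT box in 37.4%, the RFX letters in 12.5% and the E-box in 7.15%. Among the 109 promoters of 86 members the GC box was found in 67.9%, the CCAAT box in 37.6% and the RFX letters in 10.1%, and the E-box in 12 of the 109. Members are also richer in G and C, with a median of 62.0%. The GC box was in 5 of 5 promoters of members called lower and in 4 of 7 of members called higher, the RFX letters in 0 of either, and the E-box in 1, the second of 2 Rab27a entries. A match is a description of the letters and not a bound site.

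Among the Rabs of the secretory pathway, Rab27a, which docks secretory granules and lysosome-related organelles at the plasma membrane, was called higher and the other 11 of 12 were not called. Rab27a read 10.01, 9.95 and 10.02 in knockout 1, 2 and 3 and 9.65, 9.68 and 9.73 in control 1, 2 and 3, a difference of 0.31 ± 0.05 on log2 (SE, n = 3 pools per group; limma adjusted p = 0.0149). All 3 knockout-labelled pools lay above all 3 controls. Rab27b, its closest relative, read 8.88, 8.63 and 8.89 against 8.44, 8.60 and 8.59. Its groups did not overlap either, but the difference of 0.26 ± 0.09 was not called (adjusted p = 0.140, with 0.0325 without knockout 2 and 0.0316 with the first number of the array titles as a random block). Rab3d, a granule Rab of exocrine and type II cells, read 8.63, 8.74 and 8.44 against 8.76, 8.91 and 8.86. Every knockout-labelled pool was below every control pool, and the difference of -0.24 (95% interval -0.44 to -0.04) was not called (adjusted p = 0.160). Rab3c, a neuronal Rab3 form, had the widest spread of all members among the knockout-labelled pools, with 7.83, 7.33 and 8.18 against 6.86, 7.27 and 7.18. Its difference of 0.68 ± 0.21 was not called (adjusted p = 0.114), and was called in 3 of 15 alternative fits: without knockout 2 (0.0208), with array weights (0.0473) and with the random block (0.0381). No first title number is shared by the groups, so the random block does not span them. That fit called 9.41% of all genes higher and 9.05% lower, against 3.36% and 5.13% in the main fit. A call gained with the random block is therefore not particular to the gene.

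Rabs of the early endosome lay mostly to the higher side, although only 1 of 7 was called. Rab5b, which acts in fusion of early endosomes, rose by 0.19 ± 0.05 (adjusted p = 0.0480), from 10.05, 10.05 and 10.07 in the control pools to 10.27, 10.24 and 10.24. The pools of each group differed by at most a few hundredths and the groups stood apart. A second Rab5b probe set gave 10.24, 10.21 and 10.22 against 10.02, 10.02 and 10.04, a difference of 0.20 ± 0.05. Its values ran almost parallel to the first on every array, so it is not independent evidence of the rise. With all probe sets in the limma fit neither was called (adjusted p = 0.0876 for the first and 0.0834 for the second). In RefSeq Rab5b overlaps Pmel, which was not called, and its neighbours within 5000 bases Suox and Cdk2 were both called higher (adjusted p = 0.0256 and 0.0328). Rab21, a Rab of integrin endocytosis, read 10.18, 10.09 and 10.31 against 9.96, 9.90 and 9.88 (0.28 ± 0.07; adjusted p = 0.0524). Rab20, of endosomes and phagosomes, read 7.70, 7.59 and 7.70 against 7.46, 7.40 and 7.47 (0.22 ± 0.06; adjusted p = 0.0578). Neither was called, and each was called in 5 of 15 alternative fits, among them the fit without knockout 2 (0.0297 for Rab21 and 0.0373 for Rab20) and the fit with array weights (0.0204 and 0.0307). Rab22a, of early and recycling endosomes, stood at 0.17 ± 0.06 without a call (adjusted p = 0.157). In 5 of these 7 genes each knockout-labelled pool exceeded each control pool, against 14.8% of all genes.

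Rabs of late endosomes and lysosome-related organelles included 1 called higher and 1 called lower of 10. Rab9, which returns receptors from late endosomes to the Golgi, read 10.68, 10.65 and 10.82 against 10.45, 10.38 and 10.32. The groups did not overlap and the rise was 0.33 ± 0.07 (adjusted p = 0.0266). Rab36, a relative of Rab34, read 7.09, 7.10 and 6.72 against 7.97, 7.65 and 7.89 and fell by 0.87 ± 0.13 (adjusted p = 0.00990). Its neighbour on the chromosome within 5000 bases, the radial spoke gene Rsph14, was also called lower (-0.88 ± 0.14; adjusted p = 0.0137). Rab38, which with Rab32 directs proteins to melanosomes and lamellar bodies, read 8.45, 8.17 and 8.35 against 8.09, 8.15 and 8.14. The groups stood just apart, and the difference of 0.20 ± 0.08 was not called (adjusted p = 0.195). It was called in 2 of 15 alternative fits, without knockout 2 (0.0398) and with the random block (0.0414). Rab32 stood at 0.14 ± 0.08, with groups that overlapped (adjusted p = 0.359). Rab29, a Rab of the Golgi and stressed lysosomes, read 7.76, 7.92 and 7.83 against 7.58, 7.53 and 7.68 without a call (0.24 ± 0.07; adjusted p = 0.0764).

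In the Golgi and endoplasmic reticulum group only Rab6b, a neuron-enriched form of the Golgi Rab6, was called among 13 genes. It read 7.27, 6.95 and 7.32 against 7.82, 7.72 and 7.73, a fall of 0.58 ± 0.10 (adjusted p = 0.0179). Rab6a, the common form, read 10.05, 10.22 and 10.16 against 10.14, 10.16 and 10.15. The 2 Rab probe sets with the highest readings, Rab2a and Rab1a of transport between endoplasmic reticulum and Golgi, stood at 0.12 ± 0.06 and 0.04 ± 0.05, neither called (adjusted p = 0.347 and 0.754). None of the 10 recycling Rabs or of the 7 remaining Rabs was called by limma, with 2 and 0 of them at an unadjusted p under 0.05. Rab11b, of recycling endosomes, was the only member whose probe sets differed in sign (-0.02 ± 0.08 and 0.06 ± 0.09), and neither was called. Over the whole family 19 of 59 Rab genes (32.2%) had every knockout-labelled pool above every control pool, against 14.8% of all genes, and 4 (6.78%) had the reverse, against 12.8%.

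**Figure D2:**
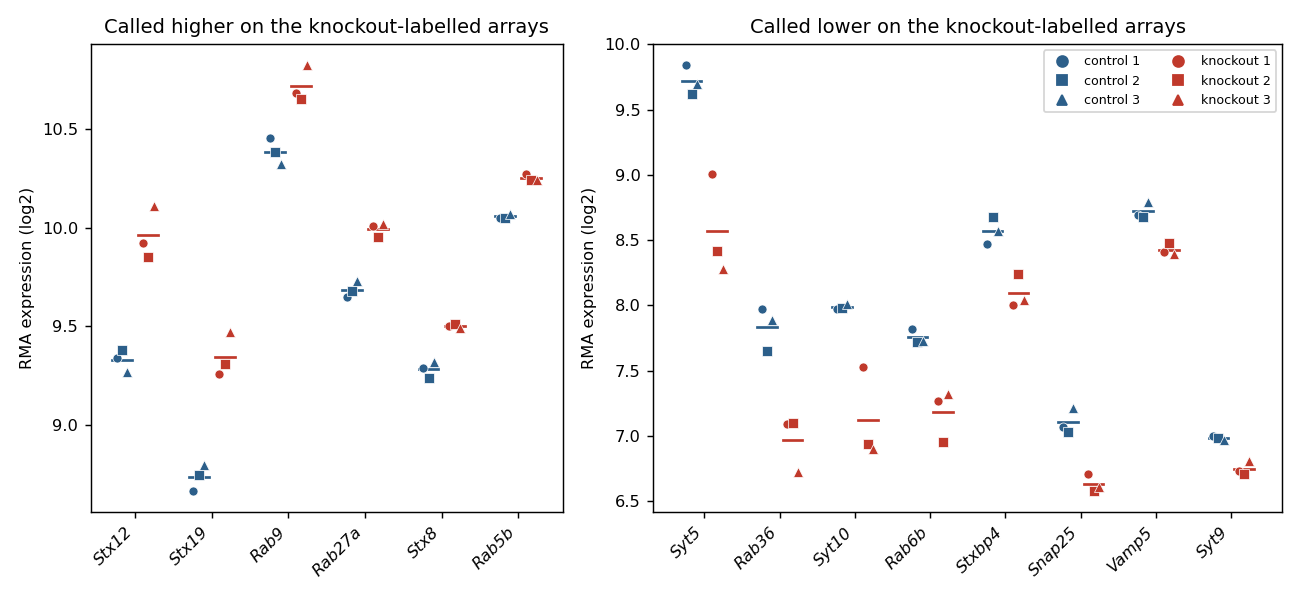
RMA expression (y axis, log2, not starting at 0) of the 6 members called higher (left) and the 8 called lower (right) in each pool, with control pools in blue, knockout-labelled pools in red, symbols for the replicate number and lines for group means. In each of the 14 genes the 2 groups do not overlap, and the knockout-labelled pools of Syt5, Rab36 and Syt10 are the most spread.

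Syntaxins gave the 2 largest called rises of the members. Stx12, a syntaxin of recycling endosomes, read 9.92, 9.85 and 10.11 in the knockout-labelled pools and 9.34, 9.38 and 9.27 in the control pools. The groups were far apart for their spread, and the rise was 0.63 ± 0.08, or 1.55-fold (adjusted p = 0.00604). Stx19, a syntaxin of epithelia that lacks a membrane-spanning segment, read 9.26, 9.31 and 9.47 against 8.67, 8.75 and 8.80. It rose by 0.61 ± 0.07, or 1.52-fold (adjusted p = 0.00547). In RefSeq the Stx19 gene overlaps Arl13b, a gene of the primary cilium that is not analysed here, so signal of a shared stretch cannot be told apart. Stx8, a late endosome syntaxin, read 9.50, 9.51 and 9.49 against 9.29, 9.24 and 9.32, a rise of 0.22 ± 0.05 (adjusted p = 0.0394). Its neighbour within 5000 bases, the ciliary gene Cfap52, was called in the other direction (-0.92 ± 0.16; adjusted p = 0.0176).

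The partner of Stx8 in late endosome fusion, Stx7, read 9.0, 8.99 and 9.15 against 8.85, 8.89 and 8.79 without a call (0.20 ± 0.06; adjusted p = 0.111). Stx17, the syntaxin of autophagosomes, read 9.46, 9.37 and 9.49 against 9.22, 9.18 and 9.26 (0.22 ± 0.06; adjusted p = 0.0578). In both genes the groups stood apart. Snap29, the SNAP protein that works with Stx17, read 9.07, 9.0 and 9.09 against 8.82, 8.88 and 8.89, also apart and not called (0.19 ± 0.05; adjusted p = 0.0759). Stx5a, the Golgi syntaxin with the highest reading of the family, stood at 0.01 ± 0.06 (adjusted p = 0.939).

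The syntaxins and SNAPs known from the type II cell surface were not called. Stx2 read 8.03, 8.06 and 7.73 against 8.33, 8.21 and 8.21, each knockout-labelled pool below each control (-0.31 ± 0.10; adjusted p = 0.109). Stx3, an apical syntaxin, read 8.23, 8.00 and 8.16 against 7.96, 7.74 and 7.89 (0.27 ± 0.08; adjusted p = 0.114, with 0.0461 in the fit blocked by replicate number and 0.0173 with the random block). Snap23, the SNAP protein of most epithelia, read 10.81, 10.92 and 10.96 against 10.84, 10.92 and 10.90. Its difference was 0.01 with a 95% interval of -0.13 to 0.15. Snap25, the neuronal SNAP, was dim and fell by 0.47 ± 0.07 (adjusted p = 0.00963), from 7.07, 7.03 and 7.21 in the control pools to 6.71, 6.58 and 6.61.

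Of the VAMPs, the vesicle SNAREs, only Vamp5 was called. Vamp5, first known from muscle, read 8.41, 8.48 and 8.39 against 8.69, 8.68 and 8.79 and fell by 0.29 ± 0.06 (adjusted p = 0.0239). Vamp8, a VAMP of exocrine granules and late endosomes whose gene lies within 5000 bases of Vamp5, read 10.64, 10.45 and 10.66 against 10.51, 10.58 and 10.52. The groups overlapped, with a difference of 0.05 and a 95% interval of -0.12 to 0.21. Vamp3, a recycling endosome VAMP, stood at 0.03 ± 0.07 (adjusted p = 0.842). Vamp2 had no probe set with 1 symbol and is not analysed here.

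Among the 5 syntaxin-binding proteins Stxbp4, which binds syntaxin 4 in insulin-regulated transport, was called lower. It read 8.00, 8.24 and 8.04 against 8.47, 8.68 and 8.57, a fall of 0.48 ± 0.09 (adjusted p = 0.0184). A second Stxbp4 probe set gave 7.84, 8.02 and 7.92 against 8.27, 8.26 and 8.38, in the same direction. Stxbp6, which binds syntaxins in place of a VAMP, read 8.12, 7.94 and 8.13 against 8.39, 8.24 and 8.28 without a call (-0.24 ± 0.07; adjusted p = 0.103). The Munc18 proteins Stxbp2 and Stxbp3 stood at 0.08 ± 0.05 and 0.16 ± 0.06, neither called (adjusted p = 0.446 and 0.187).

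Synaptotagmins had no member called higher. The 3 called lower (17.6% of the 17, against 5.13% of all genes) were all among the 8 calcium-binding forms. Syt5, a calcium sensor of dense-core vesicles, had the largest difference of the 106 members. It read 9.01, 8.42 and 8.28 in knockout 1, 2 and 3 against 9.84, 9.62 and 9.70 in the control pools, a fall of 1.15 ± 0.18 or 2.22-fold (adjusted p = 0.0123). Syt10, a calcium sensor of growth factor release in neurons, read 7.53, 6.94 and 6.90 against 7.97, 7.98 and 8.01 and fell by 0.86 ± 0.16 (adjusted p = 0.0216). In both genes knockout 1 lay nearest the controls and the groups did not overlap. Syt9, another sensor of dense-core vesicles, read 6.73, 6.71 and 6.81 against 7.00, 6.98 and 6.97, a fall of 0.23 ± 0.05 (adjusted p = 0.0370). Its call held in only 3 of 14 alternative limma fits. It was lost with trend and robust eBayes (adjusted p = 0.0519), with median centring (0.0923) and with all probe sets (0.0731), among others. Syt7, the slow calcium sensor of lysosome and granule exocytosis, read 7.87, 7.55 and 7.73 against 7.59, 7.61 and 7.59. Its groups overlapped and its difference of 0.12 had a 95% interval of -0.08 to 0.32. The other 9 synaptotagmins included 0 called by limma and 0 at an unadjusted p under 0.05. Of the 17 synaptotagmin genes 13 had a mean reading under the median of all genes (7.20), where a probe set may hold little signal of its own. These were 5 of the 8 calcium-binding forms, among them the called Syt9 with a mean of 6.87, and 8 of the 9 others. Whether dim probe sets limited the calls among the others was not tested.

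The 8 members called lower were set beside the ciliated cell markers, since both groups of genes were lower in the same pools. Syt5 and Syt10 ranked the knockout-labelled pools as the ciliated marker mean did, highest in knockout 1 and lowest in knockout 3, and the other 6 did not. Among all 106 members 10 had that order (9.43%), and among all 19938 genes 3399 had it. Rab6b was lowest in knockout 2, and Vamp5 and Stxbp4 had other orders. Rab36 was lowest in knockout 3, as the ciliated mean was, and read 7.09 and 7.10 in knockout 1 and 2. Beside the 6 members called higher, the type II marker mean was higher in each knockout-labelled pool than in each control pool, and the type I marker mean overlapped between the groups. The part of ciliated, club, neuroendocrine, type I, type II and other cell RNA in the members' differences was not tested.

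**Figure D3:**
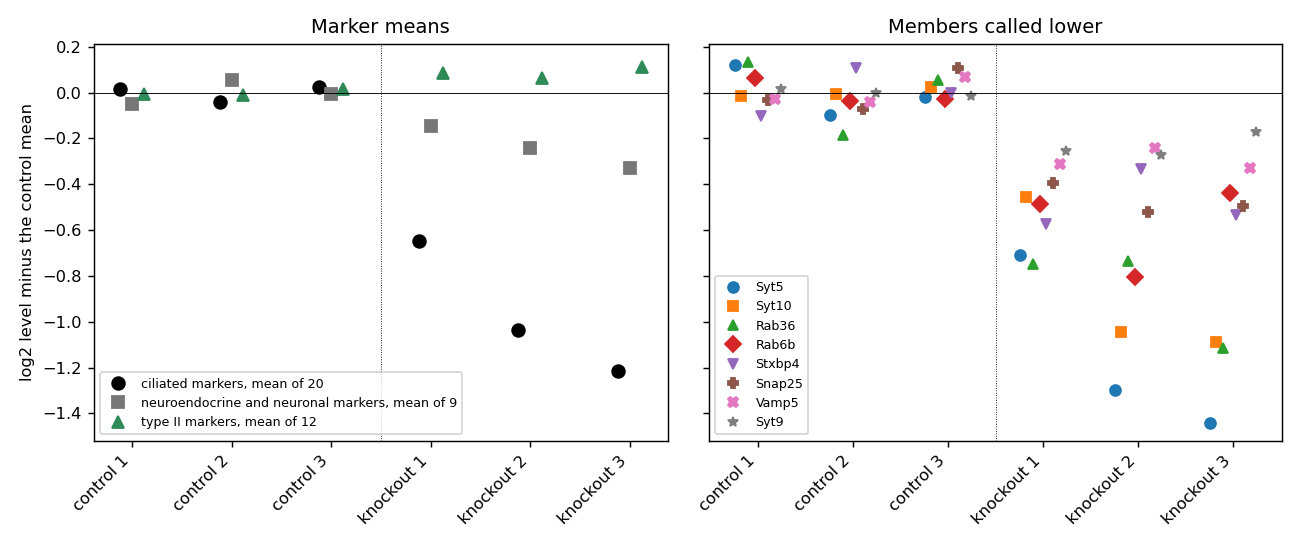
Log2 level minus the mean of the control pools (y axis) in each of the 6 pools (x axis) for the mean of the ciliated, the neuroendocrine and neuronal (without Snap25) and the type II cell markers (left) and for the 8 members called lower (right). The ciliated mean and Syt5 are both lowest in knockout 3, whereas Rab6b and Snap25 are lowest in knockout 2 and the type II mean is slightly above the controls in the 3 knockout-labelled pools.

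Spread between pools was wider in the knockout-labelled group, with a median SD over the members of 0.101 against 0.0557 in the control group, and 0.0907 against 0.0625 over all genes. The knockout-labelled spread was the wider of the 2 in 84 of the 106 members and in 13597 of all 19938 genes. After Rab3c (SD 0.427) the widest were Syt17 (0.398), Syt5 (0.387), Rab7b (0.372), Syt10 (0.353) and Syt1 (0.337). Syt17 and Rab7b were set apart by knockout 2, at 7.51 and 7.34 against at most 6.87 in knockout 1 and 3. Syt1 and Syt10 were set apart by knockout 1, at 6.27 and 7.53 against at most 5.79 and 6.94 in the other two. Counting without any test, 28 members (26.4%) had every knockout-labelled pool above every control pool, against 14.8% of all genes, and 12 (11.3%) had the reverse, against 12.8%.

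Calls for Stx12, Stx19 and Snap25 held in each of the 6 fits that omit 1 array, with adjusted p of up to 0.0411, 0.0364 and 0.0451. Rab36 lost its call without control 3 (adjusted p = 0.0603). Syt5 lost its call without control 1 (0.0611), control 2 (0.0525) or control 3 (0.0668), and Rab6b likewise (0.0726 to 0.0808). Stxbp4 was not called without knockout 3 (0.0683), control 2 (0.0813) or control 3 (0.0849). Rab27a (0.0517 to 0.0773), Rab9 (0.0681 to 0.113), Syt10 (0.0699 to 0.0971) and Vamp5 (0.0772 to 0.0972) lost their calls on omitting knockout 3 or a single control. Stx8, Rab5b and Syt9 lost their calls without any 1 of the 6 arrays (up to 0.170, 0.181 and 0.142). The sign of each of the 14 differences was the same in all 6 fits. In the fit blocked by replicate number, Rab9, Stx8, Rab5b, Vamp5 and Syt9 were not called (adjusted p = 0.0587, 0.0912, 0.113, 0.0570 and 0.0808) and the other 9 were.

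**Figure D4:**
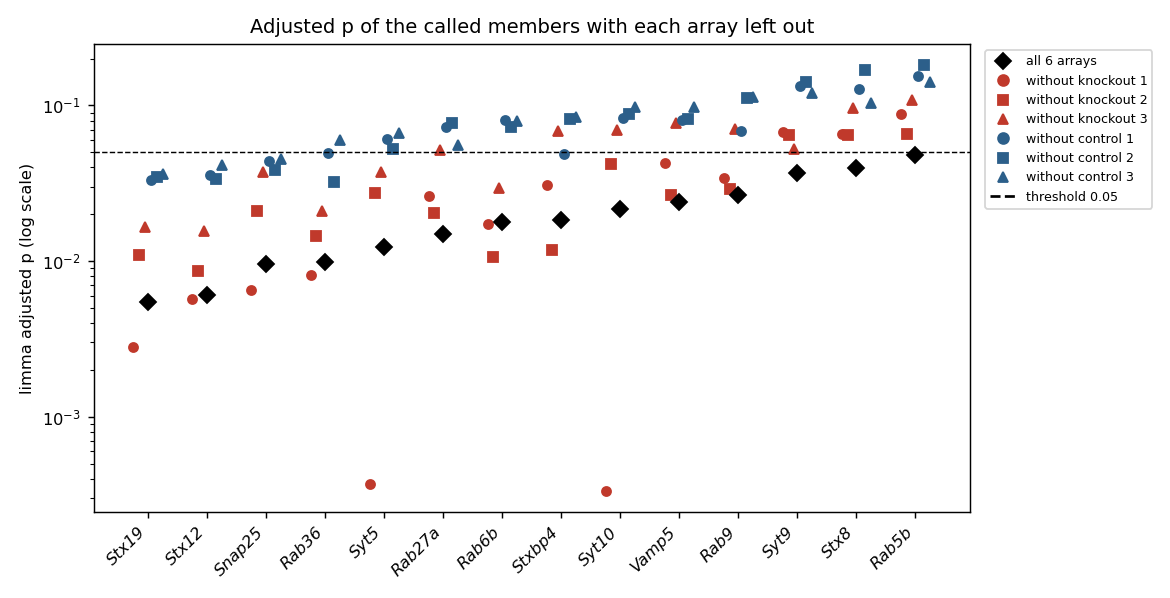
Limma adjusted p (y axis, log scale) of the 14 called members with all 6 arrays (black diamonds) and with each array left out (red for knockout, blue for control arrays), with the threshold of 0.05 dashed. Stx19, Stx12 and Snap25 stay under the line in every fit, and leaving out a control array moves the 14 genes up.

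Genes that work with these families changed about as often as genes in general. Of 129 measured partner genes 3 were called higher (2.33%) and 8 lower (6.20%), against 3.36% and 5.13% of all genes, with a median difference of 0.01. The 12 other SNAREs and the 9 exocyst subunits included 0 called by limma, with 3 and 1 at an unadjusted p under 0.05. In 7 of those 12 SNAREs every knockout-labelled pool was above every control pool, against 14.8% of all genes. Of 26 genes listed as SNARE cofactors 2 fell, the extended synaptotagmin Esyt3 (-0.65 ± 0.09; adjusted p = 0.00927, and 0.0540 without control 3) and the fusion clamp complexin Cplx2 (-0.27 ± 0.06; adjusted p = 0.0308). Whether extended synaptotagmins act in SNARE fusion was not examined here. Cplx2 was called in 1 of the 6 fits that omit an array (adjusted p of up to 0.126) and not in the fit blocked by replicate number (0.0511).

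Of 45 regulators that switch Rabs on or off, 3 rose and 4 fell. Rin2, an exchange factor of Rab5, read 9.01, 9.10 and 9.03 against 9.44, 9.49 and 9.48 and fell by 0.42 ± 0.05 (adjusted p = 0.00570). Its call held whichever array was left out (adjusted p of up to 0.0400). Tbc1d30, a Rab GTPase-activating protein, fell by 0.40 ± 0.06 and Dennd5b, an exchange factor, by 0.32 ± 0.07, while the Rab12 exchange factor Dennd3 rose by 0.34 ± 0.07 (adjusted p = 0.0134, 0.0370 and 0.0316). Tbc1d4 and Dennd5a (each 0.29 ± 0.07) were the other 2 higher and Rabgap1l (-0.23 ± 0.06) the other lower. Blocking by replicate number ended the calls of Tbc1d4 (adjusted p = 0.0537), Dennd5a (0.0542), Rabgap1l (0.0937) and Dennd5b (0.0778). Dennd3, Tbc1d4, Dennd5a and Rabgap1l were each called in 1 of the 6 fits that omit an array, Dennd5b in 2 and Tbc1d30 in 4. Of 37 Rab effectors 0 rose and 2 fell, Exph5 and Sytl5, each of which binds Rab27. Other Rab27 effectors in the list were picked out after their values were seen. Sytl2 stood at -0.27 ± 0.08, Rph3al at -0.11 ± 0.08, Sytl1 at -0.07 ± 0.06 and Myrip at -0.03 ± 0.06. Sytl4 stood at -0.01 ± 0.05, Rph3a at -0.01 ± 0.06, Sytl3 at 0.01 ± 0.09 and Mlph at 0.22 ± 0.06. None of them was called (adjusted p of 0.0813 or more). Exph5 read 8.74, 8.67 and 8.77 against 8.98, 9.0 and 9.0 (-0.27 ± 0.05; adjusted p = 0.0231), and Sytl5 7.45, 7.12 and 7.21 against 7.67, 7.70 and 7.77 (-0.45 ± 0.09; adjusted p = 0.0263). In both the groups stood apart, below the controls, whereas Rab27a itself was above them. Without control 1, control 2 or control 3 neither effector was called (adjusted p of up to 0.106 and 0.115), Sytl5 was also not called without knockout 3, and Exph5 was not called in the blocked fit (0.0542). Without the controls in turn the partner genes had 0 higher and 3, 2 and 1 lower. Blocking by replicate number left 1 partner gene higher and 4 lower.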

How the data were processed

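The deposited values are log2 signals that the authors summarised by RMA (Expression Console 1.1 of Affymetrix, as the submitters' processing notes name it). No genome build is stated in the material used. The table holds 35556 probe sets. Of them 21789 had 1 gene symbol in the platform annotation and 1621 had several, which were not used. The probe set with the highest mean stood for each gene, leaving 19938 genes and 106 members, all of which matched RefSeq (GRCm38.p6) by Entrez identifier. Groups and replicate numbers came from the array titles. The 2 groups were fitted by lmFit and eBayes (limma 3.58.1, R 4.3.3; two-sided, no covariate) over all genes, p-values were adjusted by Benjamini-Hochberg and called under 0.05, after a check on simulated data. Intervals are 95% intervals of the moderated fit. The members, gene lists and named genes were chosen with earlier results of these data known. Named were the called members, the 12 next by p, the 2 highest means of each family, 12 genes with background in type II cell secretion, members whose probe sets disagree, and up to 4 called genes of each partner list. Genes beyond these were chosen after their values were seen. Same-numbered knockout and control arrays deviated together from their group means (correlations 0.192, 0.103 and 0.111, each over the limit of 0.1), so a fit with the number as a block is given; the labels do not say what the number marks. Fixed alternatives were each array left out, a random block, pools without Y-linked signal, trend and robust eBayes, array weights, median centring, brighter genes, mean probe sets and all probe sets.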

Additional observations from a re-analysis of the deposited data

How the results depend on the processing

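No member or partner call changed direction under any alternative run. With all 6 arrays 6 members were higher and 8 lower, and these numbers ran from 2 to 10 and from 1 to 8 when 1 array was left out. Over all genes the shares in the same fits ran from 0.722% to 4.19% higher and from 1.51% to 6.34% lower. For partner genes, 3 higher and 8 lower with all arrays, the numbers ran from 0 to 4 and from 1 to 8 when 1 array was left out. The member numbers were lowest without knockout 3 and without each control array, and higher without knockout 2. In the 4 pools without Y-linked signal 0 members were higher and 2 lower by limma, Stxbp4 and Syt17, against 0.572% and 0.421% of all genes. At an unadjusted limma p under 0.05 there were 22 members higher and 15 lower. The share of all genes at that p was not counted for this fit. Among partner genes 0 were higher and 0 lower. With the first number of the array titles as a random block the estimated correlation was -0.51. No such number is shared by the 2 groups, so this block does not span them. In that fit 18 members were higher and 10 lower (9.41% and 9.05% of all genes), with 14 partner genes higher and 13 lower. Array weights gave 10 members higher and 9 lower (5.02% and 6.44% of all genes), with 9 partner genes higher. Among brighter genes only, 11 of 73 members were higher and 6 lower (7.81% and 9.08% of the genes tested), with 6 partner genes higher. With all probe sets in the fit 3 members were higher and 5 lower (1.53% and 3.23% of all genes), and 0 partner genes were higher and 4 lower. The replicate block gave 1 partner gene higher and 4 lower. Beyond the 5 member calls lost and Stx3 gained, given above, it changed no member call. The cause of these changes was not tested. Refits of called members kept the call 138 times, lost it 70 times and reversed it 0 times. With 3 arrays per group, and dim probe sets for most synaptotagmins, small differences were not resolved.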
